A study of Homo sapiens with 6 samples.

Results

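Antisense RNAs with a systematic name, those whose symbol ends in -AS and a digit, were set against each other in A549 cells with added recombinant surfactant protein D of human sequence (rhSP-D) and in cells that had vehicle alone. The rule took every gene of the count table with such a symbol and a summed count of 60 or more over the 6 libraries, and dropped EPB41L4A-AS1. It found 227 of 57773 genes, out of 878 with an antisense name at any count. They were thus chosen by their summed count, and the rule did not use the tested difference between groups. The sum was of raw counts over both groups. A scarce gene could therefore enter mainly through the group where it was higher or the libraries deeper. The members were also chosen with earlier results of these data known. Their totals ran between 61 and 54649 counts, with a median of 262. Just inside the minimum were IL21R-AS1 and SMIM2-AS1 with 61 counts each and SLC2A1-AS1 with 62. Just outside were BHLHE40-AS1, NPPA-AS1, RHPN1-AS1 and SEC24B-AS1 with 59 each.

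A natural antisense RNA is transcribed from the strand opposite to another gene, here called its sense gene, and its symbol carries that gene's name. Some start beside the sense promoter and run away from it, and others start within or beyond the sense gene and run across it. Antisense RNAs are known to act on transcription or chromatin at their own locus, to pair with the sense transcript, or to work elsewhere in the cell, and for many no function is known. They are mostly less abundant than mRNAs, and the nuclear exosome, an RNA-degrading complex, removes many of those that start at divergent promoters.

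The label non-coding did not hold for all of them. GENCODE 29, an annotation of the human genome on GRCh38, lists 154 of the 227 as antisense, 29 as lincRNA, 27 as processed transcripts and 3 as bidirectional promoter lncRNAs. It lists 6 as protein coding, which are MMP24-AS1 (now MMP24OS), FAM83H-AS1 (IQANK1), CEBPZ-AS1 (CEBPZOS), RPA3-AS1 (UMAD1), TOPORS-AS1 (SMIM27) and NCBP2-AS2 (NCBP2AS2). Another 4 are pseudogenes, and 4 identifiers are not in GENCODE 29. One symbol, DHRS4-AS1, stands for 2 identifiers, so the 227 genes carry 226 names. The sense gene was found in the count table for 220, and 7 have none by that name, among them the antisense RNAs named after the HOXA, HOXB, HOXC and HOXD clusters.

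A549 is a human lung adenocarcinoma line, and surfactant protein D is a secreted lectin of the lung lining. The 3 rhSP-D samples received the protein at 10 µg/ml for 48 h, and the 3 vehicle samples received an equal volume of the elution buffer left from its purification, also for 48 h. Poly(A) RNA was sequenced in pairs of reads, so antisense RNAs without a poly(A) tail were not measured. The kit named in the labels, NEBNext Ultra RNA, does not mark strand, and whether strand was used in counting is not given in the sources used here. Reads from bases where an antisense exon faces an exon of the other strand therefore cannot be told apart. Of the 223 antisense RNAs in GENCODE 29, 172 hold such bases and 51 hold none. The median share of facing exon bases was 9.15%, and 16 exceeded 50%.

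Of the antisense RNAs that differed between groups, 4 had a promoter window that overlaps no annotated untranslated region, and other windows were left out. DHRS4-AS1 is given by its motif counts alone. For the other 3 the promoter sequences are shown, to show the start regions from which these transcripts come. They are 300 bases long, from 250 bases before to 50 bases after the RefSeq start (GRCh38.p14), and RefSeq entries were matched for 187 of the 227. SNHG29, the present name of FAM211A-AS1, starts in chr17:16438737-16439036 on the + strand. FGD5-AS1 starts in chr3:14948392-14948691 on the - strand, and MAP3K14-AS1 in chr17:45247675-45247974 on the + strand. Capitals mark the motif CCAAT (read as ATTGG from the other strand), the motif GGGCGG (likewise CCGCCC) and the motif CGGAAG (likewise CTTCCG), which were searched on both strands.
SNHG29: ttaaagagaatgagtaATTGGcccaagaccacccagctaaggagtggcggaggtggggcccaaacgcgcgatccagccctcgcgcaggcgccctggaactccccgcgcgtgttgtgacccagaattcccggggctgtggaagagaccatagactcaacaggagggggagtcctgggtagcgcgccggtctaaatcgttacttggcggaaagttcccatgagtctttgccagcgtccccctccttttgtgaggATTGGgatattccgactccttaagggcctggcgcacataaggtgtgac
FGD5-AS1: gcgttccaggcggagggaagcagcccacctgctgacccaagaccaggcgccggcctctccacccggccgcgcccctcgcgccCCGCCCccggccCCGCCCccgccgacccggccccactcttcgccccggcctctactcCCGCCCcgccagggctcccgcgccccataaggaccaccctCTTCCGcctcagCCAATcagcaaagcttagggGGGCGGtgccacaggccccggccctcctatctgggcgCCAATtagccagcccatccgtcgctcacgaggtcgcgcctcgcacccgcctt
MAP3K14-AS1: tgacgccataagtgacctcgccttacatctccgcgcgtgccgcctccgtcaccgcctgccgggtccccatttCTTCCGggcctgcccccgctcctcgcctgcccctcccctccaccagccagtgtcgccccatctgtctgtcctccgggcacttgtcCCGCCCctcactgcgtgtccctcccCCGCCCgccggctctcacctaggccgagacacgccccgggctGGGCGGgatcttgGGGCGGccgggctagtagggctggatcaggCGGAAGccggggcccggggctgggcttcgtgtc

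The SNHG29 window held 2 CCAAT matches and 19 CpG dinucleotides. The FGD5-AS1 window held 2 CCAAT, 4 GGGCGG and 1 CGGAAG matches and 32 CpG, and the MAP3K14-AS1 window held 4 GGGCGG and 2 CGGAAG matches and 29 CpG. DHRS4-AS1, whose sequences are not printed, had 2 windows, which were poorer. They held 1 and 0 CGGAAG matches and 14 and 9 CpG, with 0 CCAAT and 0 GGGCGG matches in both. GGGCGG is the GC box that SP1-family factors bind, CCAAT is the box bound by NF-Y, and CGGAAG is the core bound by ETS factors. Over the 186 antisense symbols with a RefSeq window, GGGCGG occurred in 64.5%, against 44.6% of the windows of 27305 genes, and CGGAAG in 28.0%, against 19.9%. TGCGCNC, part of the palindrome bound by NRF1, occurred in 31.2% against 19.97%. CCAAT occurred in 35.5% against 35.7%, and TATAAA in 4.84% against 11.95%. The antisense windows had a median of 26 CpG and 67.0% GC, against 14 CpG and 58.3% GC over all genes. The 27305 genes were taken whatever their counts in A549, while the antisense RNAs had a summed count of 60 or more. The 2 sets thus differ in more than the antisense name, and none of these shares is read as a trait of antisense promoters. A match is a description of the letters in the window, not a binding site.

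Total counts were between 11396193 in vehicle replicate 1 and 26030880 in rhSP-D replicate 1. The scaling factors of the trimmed mean method (TMM) were 0.985 to 0.987 in rhSP-D and 1.01 to 1.02 in vehicle libraries. Values are given as CPM, the count relative to the TMM-scaled library. Summed epithelial markers (EPCAM, CDH1, KRT8, KRT18, KRT19) were at 9489 to 9669 CPM in rhSP-D and 9282 to 9400 CPM in vehicle, mostly the keratins KRT8 and KRT18. EPCAM and KRT19 were low, with means of 1.99 and 1.53 CPM in rhSP-D and 1.82 and 1.83 CPM in vehicle. Summed alveolar type II markers (SFTPA1, SFTPB, SFTPC, NKX2-1, LAMP3) were near 0, at 0.201 to 0.469 CPM in rhSP-D and 0.260 to 0.746 CPM in vehicle, so the alveolar type of the label is not borne out by them. Of the leukocyte markers, PTPRC was at 0 in the 3 rhSP-D and 2 vehicle libraries and at 0.0497 CPM in vehicle replicate 3, while CD68, a lysosomal protein, was at 89.5 to 95.1 CPM in rhSP-D and 80.7 to 86.5 CPM in vehicle. Fibroblast markers (COL1A1, COL3A1, PDGFRB) summed to 11.4 to 13.2 CPM in rhSP-D and 9.81 to 13.5 CPM in vehicle. Nearly all of this was COL1A1, with means of 12.2 CPM in rhSP-D and 11.5 CPM in vehicle. COL3A1 and PDGFRB were near 0, with means of 0.0130 and 0.225 CPM in rhSP-D and 0.0352 and 0.281 CPM in vehicle. The endothelial marker CDH5 was at 0 in all but rhSP-D replicate 1, which had 0.0391 CPM. The part of these differences in the results below was not tested. In bulk RNA, fewer cells of a type and less RNA per cell cannot be told apart.

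Few of the antisense RNAs differed between rhSP-D and vehicle, and those that did went both ways. Of the 225 that passed the filter on low counts, 8 (3.56%) had an adjusted p under 0.05 in edgeR's quasi-likelihood test, 4 higher and 4 lower with rhSP-D. Over all 15848 genes tested the share was 15.9%, with 9.31% higher and 6.63% lower. C1QTNF9B-AS1 and TMEM51-AS1 were not tested. Of those tested, 21 reached the filter's level in all 3 libraries of 1 group only, 10 in rhSP-D and 11 in vehicle. The median log2 change of the 225 was -0.031, beside -0.0063 for all genes tested. The 3 rhSP-D values lay wholly above the vehicle values in 11 antisense RNAs and wholly below in 19, or 13.3% together, against 31.5% of all genes. At an unadjusted p under 0.05 the share was 9.33%, against 28.1%. With libraries scaled by their totals alone, 14 passed, 4 higher and 10 lower, and the split of all genes turned to 856 higher and 1961 lower, against 1475 higher and 1051 lower with TMM. The even split of the antisense RNAs also depended on other settings. Limma-voom called 4 higher and 8 lower, against 1480 and 1093 of all genes. A filter of 1 CPM in 3 samples gave 4 higher and 7 lower, against 1484 and 1146. With libraries thinned to equal depth 3 were higher and 1 lower, against 1115 and 758.

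The antisense RNAs were scarce, and scarce genes carry more error. Their median level was 2.39 CPM, against 18.2 CPM for all genes tested, and the median SE of their log2 change was 0.22, against 0.077. For 108 of them (48.0%) the 95% interval of the change lay within 1.5-fold, against 77.3% of all genes. For the others a larger change could not be told from none at this depth. Among antisense RNAs under 2 CPM, 1 of 102 passed (0.98%), against 1.24% of all genes at that level. Between 2 and 10 CPM 1 of 82 passed (1.22%), against 3.6%, and between 10 and 50 CPM 4 of 37 passed (10.8%), against 14.0%. At 50 CPM or more 2 of 4 passed, FAM211A-AS1 and FGD5-AS1, against 39.2% of all genes. Within each level band the antisense share was thus nearer to that of other genes than over all levels together.

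**Figure D1:**
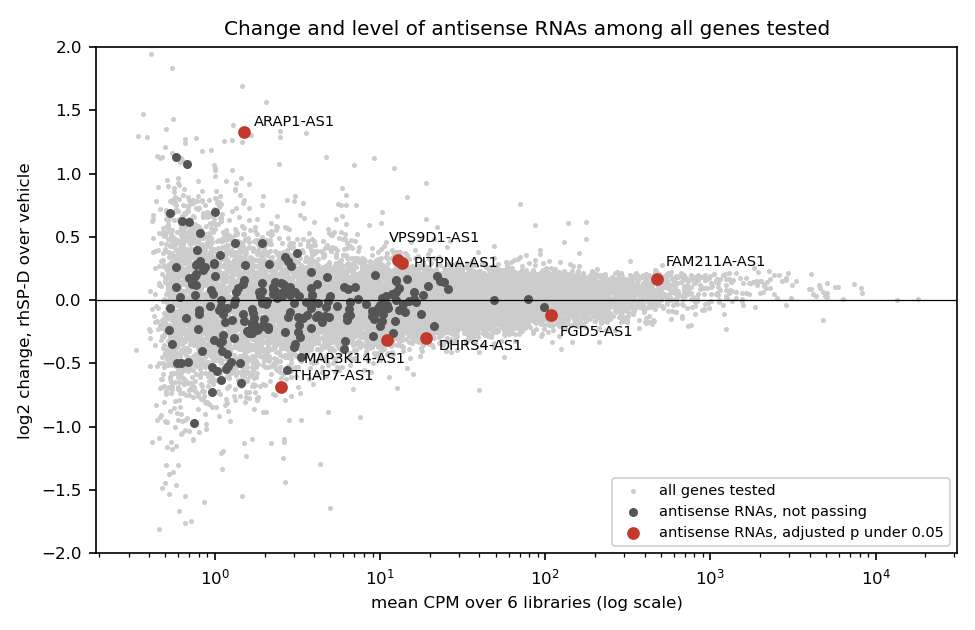
Log2 change of rhSP-D over vehicle (vertical) against the mean CPM over 6 libraries (horizontal, log scale) for 15848 tested genes (light grey) and the 225 tested antisense RNAs (dark grey, or red and named where the adjusted p was under 0.05). The vertical axis ends at 2 on either side, which leaves out 13 genes, none of them antisense RNAs. Most antisense RNAs lie at the left, where the spread of all genes is wide, and the 8 that passed lie between log2 changes of -0.68 and 1.33.

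Among the 4 that rose, FAM211A-AS1 was by far the most abundant. This transcript, now named SNHG29, is the host of small nucleolar RNAs, which are cut from its introns, and GENCODE 29 places it at chr17:16438822-16478678 on the + strand, running into the 3' side of FAM211A (LRRC75A). It had 509, 498 and 511 CPM in rhSP-D libraries, against 448, 453 and 448 CPM in vehicle libraries. Every rhSP-D value was above every vehicle value, by more than the spread within either group. The mean was 506 ± 7.15 CPM in rhSP-D and 449.7 ± 2.63 CPM in vehicle (SD, n = 3 each), a rise of 12.5% (95% interval 9.49 to 15.6%, edgeR adjusted p = 1.78e-07). Over all alternatives its adjusted p ran between 2.70e-14 and 1.70e-05. It also belongs to the host genes of small nucleolar RNAs. Of its 3759 exonic bases, 452 face exons of the other strand, and FAM211A itself averaged 2.41 ± 0.355 CPM in rhSP-D and 2.21 ± 0.400 CPM in vehicle.

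ARAP1-AS1 had the largest rise. It lies at chr11:72685075-72693808 on the + strand, wholly inside the body of ARAP1, a GTPase-activating protein for small GTPases, at its 3' end. It had 70, 36 and 35 counts in rhSP-D libraries, against 7, 20 and 16 counts in vehicle libraries. Scaled for depth these were 2.73, 1.96 and 1.76 CPM in rhSP-D and 0.606, 1.12 and 0.796 CPM in vehicle, with no overlap between the groups. The mean was 2.15 ± 0.515 CPM in rhSP-D and 0.839 ± 0.258 CPM in vehicle (SD, n = 3 each), and edgeR fitted a 2.51-fold change (log2 change 1.33 ± 0.29 SE, adjusted p = 0.00138). Of its 388 exonic bases, 385 face an exon of ARAP1, whose own level was 90.7 ± 0.299 CPM in rhSP-D and 88.7 ± 1.82 CPM in vehicle (adjusted p = 0.618). Its reads therefore cannot be told apart from those of ARAP1 if strand was not counted. It passed under every alternative that gave it an adjusted p, between 0.000123 and 0.0348, and DESeq2's filter on low counts gave it none.

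VPS9D1-AS1 lies inside VPS9D1, a gene for a protein with a VPS9 domain, at chr16:89711856-89718165 on the + strand. It had 15.4, 14.1 and 12.9 CPM in rhSP-D, against 11.5, 11.8 and 10.9 CPM in vehicle. The groups did not overlap, though the lowest rhSP-D and the highest vehicle values were close. It rose by 24.4% (95% interval 9.55 to 41.3%, edgeR adjusted p = 0.0145), while VPS9D1 averaged 31.6 ± 2.08 CPM in rhSP-D and 29.5 ± 2.01 CPM in vehicle (adjusted p = 0.327). Without rhSP-D replicate 1 the adjusted p was 0.138, without vehicle replicate 3 it was 0.0881, and with changes corrected for the length and GC content of genes it was 0.134.

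PITPNA-AS1 lies at chr17:1516931-1518096 on the + strand and runs into the 3' end of PITPNA, which encodes a phosphatidylinositol transfer protein. It had 15.0, 14.1 and 15.6 CPM in rhSP-D, against 11.4, 13.8 and 11.1 CPM in vehicle. Vehicle replicate 2 came near the rhSP-D values and the other vehicle replicates were lower. It rose by 22.9% (95% interval 8.08 to 39.8%, edgeR adjusted p = 0.0226), beside 87.5 ± 0.401 CPM of PITPNA in rhSP-D and 87.0 ± 3.73 CPM in vehicle. The adjusted p was 0.0850 without rhSP-D replicate 1, 0.0960 without rhSP-D replicate 3, 0.0755 without vehicle replicate 1 and 0.170 without vehicle replicate 3. It was 0.169 with all libraries thinned to the depth of the shallowest and 0.217 with the length and GC correction, and 379 of its 542 exonic bases face exons of the other strand.

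**Figure D2:**
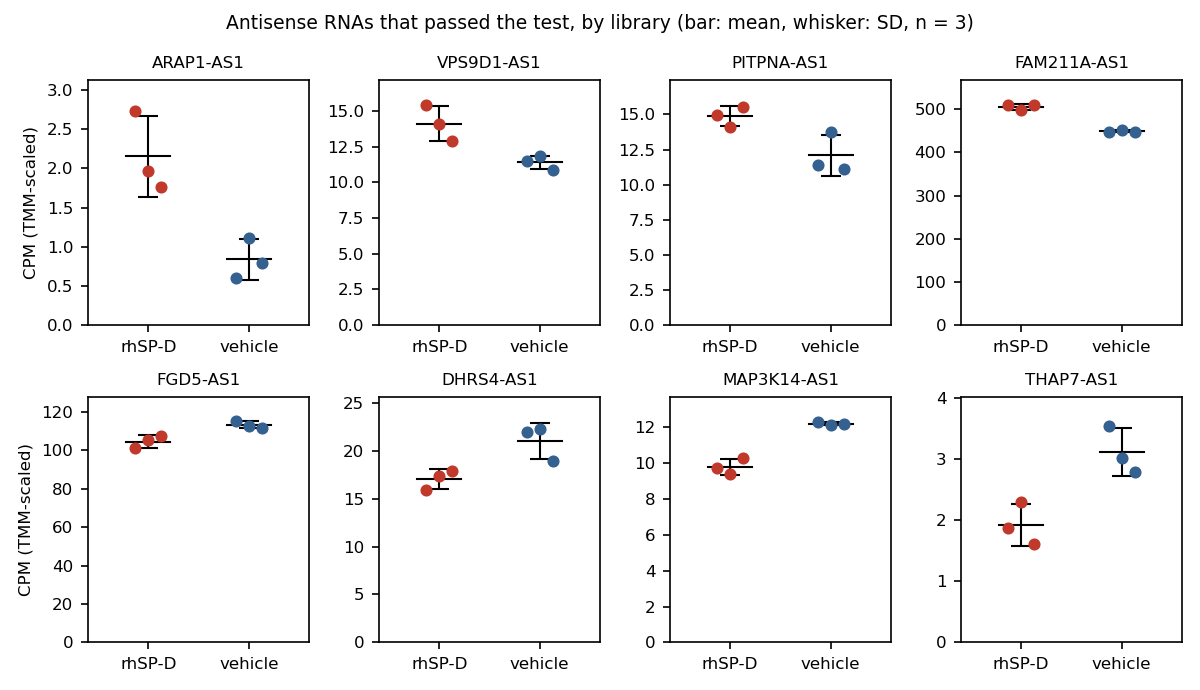
CPM (TMM-scaled, vertical) of the 8 antisense RNAs with an adjusted p under 0.05, in rhSP-D libraries (red, left) and vehicle libraries (blue, right). Points are libraries, bars are means and whiskers SDs (n = 3 each). No pair of groups overlaps, and the steps run from 104.5 against 113 CPM for FGD5-AS1 to 2.15 against 0.839 CPM for ARAP1-AS1.

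Of the 4 that fell, FGD5-AS1 was the most abundant and the least changed. It lies at chr3:14920347-14948424 on the - strand, starting beyond the 3' end of FGD5, an exchange factor for CDC42 known from endothelium, and running into it. It had 101, 105 and 107 CPM in rhSP-D, against 115, 113 and 112 CPM in vehicle. The groups were close but did not overlap. It fell by 7.71% (95% interval -11.8 to -3.42%, edgeR adjusted p = 0.0118). Its sense gene FGD5 was too low to test, with 0.256 ± 0.0548 CPM in rhSP-D and 0.198 ± 0.0250 CPM in vehicle. Without rhSP-D replicate 1 the adjusted p was 0.111, with libraries thinned to equal depth 0.0562, and with the length and GC correction 0.324, at a log2 change of -0.054 in place of -0.12.

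DHRS4-AS1 spans DHRS4, a dehydrogenase and reductase of retinal and other carbonyls, at chr14:23938731-23988839 on the - strand. The identifier ENSG00000215256 had 15.9, 17.4 and 17.9 CPM in rhSP-D, against 21.9, 22.3 and 18.9 CPM in vehicle. All rhSP-D values were lower, with vehicle replicate 3 the nearest to them. It fell by 18.7% (95% interval -27.1 to -9.19%, edgeR adjusted p = 0.00757), beside 49.1 ± 1.03 CPM of DHRS4 in rhSP-D and 49.6 ± 1.22 CPM in vehicle (adjusted p = 0.909). The second identifier of that symbol, ENSG00000197775, did not pass, with a log2 change of 0.10 (adjusted p = 0.805). The DHRS4 locus holds near-identical gene copies, and how reads that fit several places were counted is not given in the sources used here, so these values are uncertain. The adjusted p was 0.0760 without rhSP-D replicate 1 and 0.0650 without vehicle replicate 2.

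MAP3K14-AS1 lies at chr17:45247925-45268630 on the + strand and runs into the 3' part of MAP3K14, the kinase NIK of the noncanonical NF-kB pathway. It had 9.72, 9.38 and 10.3 CPM in rhSP-D, against 12.3, 12.2 and 12.2 CPM in vehicle. The vehicle libraries were nearly identical and all above the rhSP-D libraries. It fell by 19.7% (95% interval -29.4 to -8.60%, edgeR adjusted p = 0.0157), while MAP3K14 had 24.6 ± 1.81 CPM in rhSP-D and 23.4 ± 0.666 CPM in vehicle (adjusted p = 0.531). The adjusted p was 0.0624 without rhSP-D replicate 1 and also without rhSP-D replicate 2, 0.0549 without vehicle replicate 3, and 0.0897 at equal depth.

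THAP7-AS1 starts inside THAP7, a zinc-finger transcriptional repressor, and runs away from it at chr22:21001886-21010342 on the + strand. It had 48, 42 and 32 counts in rhSP-D, against 41, 54 and 56 counts in vehicle, or 1.87, 2.29 and 1.61 CPM against 3.55, 3.01 and 2.78 CPM. After scaling for depth, vehicle replicate 1, the shallowest library, was the highest. It fell by 37.7% (95% interval -53.9 to -15.9%, edgeR adjusted p = 0.0254), beside 30.8 ± 0.552 CPM of THAP7 in rhSP-D and 29.2 ± 0.843 CPM in vehicle (adjusted p = 0.382). The adjusted p was 0.0876 without rhSP-D replicate 1, 0.106 without rhSP-D replicate 3, 0.0987 without vehicle replicate 1, 0.0559 without vehicle replicate 2 and 0.167 at equal depth, and DESeq2 gave none. Without rhSP-D replicate 1 only FAM211A-AS1 and ARAP1-AS1 of the 8 passed.

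The 10 most abundant antisense RNAs by mean CPM were FAM211A-AS1, FGD5-AS1, OIP5-AS1, MMP24-AS1, CEBPZ-AS1, WAC-AS1, MAPKAPK5-AS1, AGAP2-AS1, NCBP2-AS2 and HNRNPU-AS1. The first and second of these passed. OIP5-AS1, a conserved transcript also called cyrano that binds the microRNA miR-7, had 98.2, 93.2 and 97.2 CPM in rhSP-D, against 97.9, 99.8 and 102 CPM in vehicle. Its groups overlapped, and its change of -3.65% had a 95% interval of -8.04 to 0.957%. MMP24-AS1 and CEBPZ-AS1, both annotated as coding for small proteins, differed by 0.677% (-4.41 to 6.03%) and 0.254% (-6.09 to 7.02%).

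NCBP2-AS2, another of the coding 6, had 26.1, 22.6 and 22.1 CPM in rhSP-D, against 19.99, 21.8 and 20.3 CPM in vehicle, without overlap, and an edgeR adjusted p of 0.0655. Its adjusted p was 0.0369 without rhSP-D replicate 3 and 0.0486 without vehicle replicate 2, but it reached 0.433 with another library left out. Over all alternatives it ran between 0.0369 and 0.750. HNRNPU-AS1 had 17.5, 21.0 and 20.9 CPM in rhSP-D, against 22.8, 23.3 and 21.98 CPM in vehicle, also without overlap, and an adjusted p of 0.0584. Its adjusted p was 0.0443 without rhSP-D replicate 2 and 0.0423 without rhSP-D replicate 3, but it reached 0.385 with another library left out. Over all alternatives it ran between 0.0201 and 0.385. MAPKAPK5-AS1 had 25.7 ± 0.903 CPM in rhSP-D and 23.3 ± 0.742 CPM in vehicle (adjusted p = 0.121). AGAP2-AS1 had 24.4 ± 1.04 CPM in rhSP-D and 22.04 ± 1.38 CPM in vehicle (adjusted p = 0.113). WAC-AS1 had 26.4 ± 0.449 CPM in rhSP-D and 24.9 ± 1.46 CPM in vehicle (adjusted p = 0.395). Of the 6 coding genes none passed in edgeR, limma-voom or DESeq2, which gave an adjusted p to 4 of them, and 1 had an unadjusted p under 0.05.

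FAM211A-AS1 held more counts than any other antisense RNA, so the sum was taken with it and without it. All 227 together took 0.180 to 0.183% of counts in rhSP-D and 0.182 to 0.185% in vehicle libraries, which overlap. With TMM scaling the order turned, with 0.183 to 0.185% in rhSP-D and 0.180 to 0.182% in vehicle libraries. Without FAM211A-AS1 they took 0.131 to 0.133% in rhSP-D and 0.137 to 0.140% in vehicle libraries. With TMM scaling these were 0.133 to 0.134% in rhSP-D and 0.135 to 0.137% in vehicle libraries. Per kilobase of exon, FAM211A-AS1 reached 135 CPM in rhSP-D and 119.6 CPM in vehicle, and PITPNA-AS1, FGD5-AS1 and ARAP1-AS1 reached 27.5, 20.4 and 5.54 CPM per kilobase in rhSP-D and 22.3, 22.1 and 2.16 CPM per kilobase in vehicle.

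Apart from ARAP1-AS1, the largest positive changes fell short of the threshold. POT1-AS1, beside the telomere protein gene POT1, had 15, 22 and 13 counts in rhSP-D, against 3, 5 and 10 counts in vehicle (log2 change 1.13, edgeR adjusted p = 0.0838). DNAJC9-AS1 had 20, 21 and 19 counts in rhSP-D, against 0, 3 and 20 counts in vehicle (log2 change 1.08, adjusted p = 0.391). Vehicle replicate 3 alone held DNAJC9-AS1 at the rhSP-D level, and without that library the log2 change was 3.16, given as a description. TIPARP-AS1 had 29, 33 and 17 counts in rhSP-D, against 5, 10 and 24 in vehicle (log2 change 0.70, adjusted p = 0.220), and IL21R-AS1 had 8, 10 and 23 against 3, 14 and 3 (log2 change 0.69, adjusted p = 0.489). The groups of TIPARP-AS1 and of IL21R-AS1 overlapped. POT1-AS1, DNAJC9-AS1 and TIPARP-AS1 reached the level of the low-count filter in every rhSP-D library but not in every vehicle library. Nothing is therefore read from their direction.

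Among the largest negative changes besides THAP7-AS1, the following also fell short of the threshold. STARD4-AS1, beside the gene of the cholesterol carrier STARD4, had 0.625, 0.436 and 0.452 CPM in rhSP-D, against 0.865, 0.669 and 1.44 CPM in vehicle (log2 change -0.97, edgeR adjusted p = 0.0828). SMARCA5-AS1, inside the gene of a chromatin-remodelling ATPase, had 36, 13 and 0 counts in rhSP-D, against 12, 16 and 34 counts in vehicle (log2 change -0.73, adjusted p = 0.713). It was at 0 in rhSP-D replicate 3 alone, and 630 of its 945 exonic bases face SMARCA5. KRTAP5-AS1 had 1.054, 0.981 and 1.36 CPM in rhSP-D, against 1.38, 2.29 and 1.59 CPM in vehicle (log2 change -0.65, adjusted p = 0.120). STARD4-AS1 and KRTAP5-AS1 were lower in all rhSP-D libraries. STARD4-AS1 and SMARCA5-AS1 reached the filter's level in every vehicle library but not in every rhSP-D library. Nothing is read from their direction either. In all, 22 antisense RNAs that did not pass had groups that did not overlap, 7 with rhSP-D above and 15 with rhSP-D below vehicle.

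The sense genes were mostly more abundant than their antisense RNAs, and about as many rose as fell. Of 201 distinct sense genes tested, 37 (18.4%) passed, 18 higher and 19 lower, a share near the 15.9% of all genes. Their median log2 change was -0.022 and their median level 33.4 CPM. With the length and GC correction 24 passed, 17 higher and 7 lower, and with library totals alone 54, 11 higher and 43 lower. Per kilobase of exon, the antisense RNA was above its sense gene in 35 of 197 pairs in rhSP-D and in 34 in vehicle. The median antisense level was 18.4% of the sense level in rhSP-D and 19.2% in vehicle.

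The changes of antisense RNAs and of their sense genes had the same sign about as often as opposite signs. In 202 pairs with both genes tested, 103 had log2 changes of the same sign and 99 of opposite sign. Across these pairs Spearman's rho was 0.0022 and Pearson's r 0.0044, given as a description, since all pairs share the same 6 libraries and many share bases. In the 57 pairs whose exons share no bases, rho was 0.026 and 28 had the same sign. The median absolute log2 change of the antisense RNAs was 0.14, below their median SE of 0.22. A rho near 0 therefore cannot show that the changes of the pairs are unrelated. In 7 pairs the antisense RNA alone passed, in 37 the sense gene alone, and in 158 neither. In edgeR and in DESeq2, which gave an adjusted p to both genes of 40 pairs, 0 pairs had both genes past an adjusted p of 0.05. Limma-voom gave 1, and 5 pairs had both at an unadjusted p under 0.05.

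**Figure D3:**
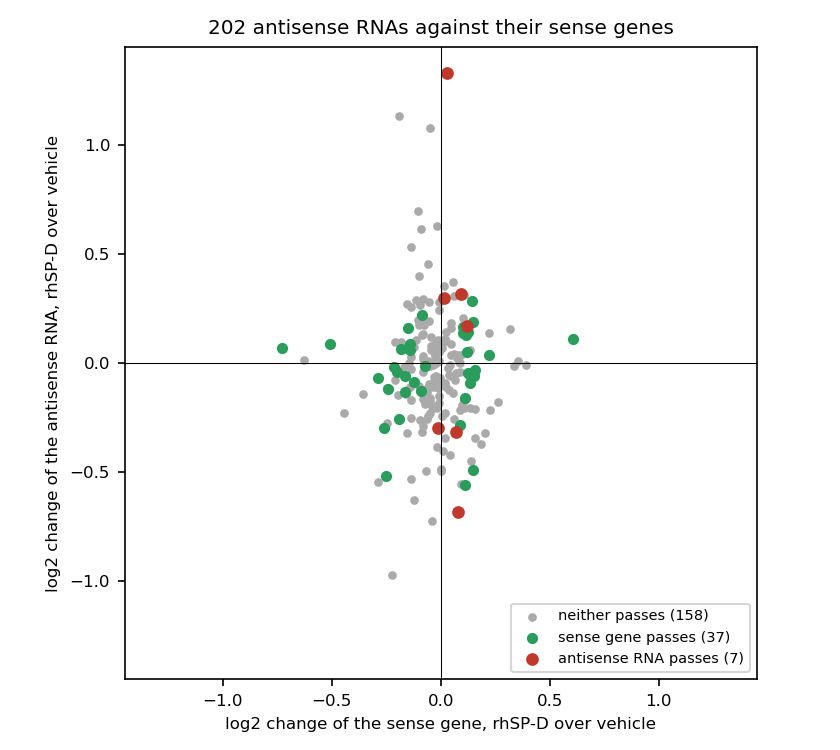
Log2 change (rhSP-D over vehicle) of the antisense RNA (vertical) against that of its sense gene (horizontal) in 202 pairs, red where the antisense RNA passed (7), green where the sense gene passed (37) and grey where neither did (158). The cloud shows no slope (Spearman's rho 0.0022), though the antisense changes carry a median SE of 0.22. No pair has both genes past the threshold.

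Dividing the antisense count by the sense count within each library removes the scaling of libraries. This log2 ratio, with 0.5 added to each count, did not overlap between groups in 35 of 202 pairs (17.3%), 17 with rhSP-D above vehicle and 18 below. Of 2819 pairs of genes that overlap on opposite strands in GENCODE 29, 21.7% did not overlap between groups. These pairs include some of the 202 and were not matched to them for level. Not all of the 202 overlap, so the 2 shares come from unlike sets. For each of the 35 pairs the exact 2-sided permutation p is 0.1, the smallest that 3 against 3 allows, so the ratio of no pair could pass 0.05. In 15 of the 35 pairs 1 gene passed the edgeR test, the antisense RNA in 5 and the sense gene in 10. The antisense RNA passed in the pairs of ARAP1-AS1, VPS9D1-AS1, DHRS4-AS1, MAP3K14-AS1 and THAP7-AS1, whose log2 ratios differed by 1.30, 0.20, -0.29, -0.39 and -0.78.

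In 5 pairs the sense gene fell and the ratio was higher with rhSP-D. The ratio contains the sense count, and the pairs were picked by both. Its direction, here and in the pairs where the sense gene rose, is therefore no separate support for the sense call. PRKCQ, the kinase PKC theta known from T-cell signalling, had 4.30, 3.82 and 3.87 CPM in rhSP-D, against 5.45, 5.69 and 5.92 CPM in vehicle, a fall of 29.7% without overlap (edgeR adjusted p = 0.0140). PRKCQ-AS1, which starts 118 bases from the PRKCQ start, runs the other way and shares no exon base with the other strand, had 6.33, 7.63 and 5.92 CPM in rhSP-D, against 6.23, 6.08 and 6.31 CPM in vehicle (adjusted p = 0.714). The antisense values overlapped, and the log2 ratio was higher by 0.59. WAC, an adaptor in histone H2B ubiquitination, had 109 ± 2.16 CPM in rhSP-D and 121 ± 3.39 CPM in vehicle (adjusted p = 0.00185), and the ratio of WAC-AS1 to it was higher by 0.23.

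ARHGAP5, a GTPase-activating protein of the cytoskeleton, had 42.0 ± 2.71 CPM in rhSP-D and 47.4 ± 2.28 CPM in vehicle (edgeR adjusted p = 0.0144), with a ratio of ARHGAP5-AS1 higher by 0.24. ASH1L, a histone H3 methyltransferase, had 39.3 ± 2.28 CPM in rhSP-D and 43.4 ± 1.97 CPM in vehicle (adjusted p = 0.0433), with a ratio of ASH1L-AS1 higher by 0.28. TTN, the muscle protein titin, was low, with 1.32 ± 0.285 CPM in rhSP-D and 2.18 ± 0.223 CPM in vehicle (adjusted p = 0.0490). TTN-AS1 had 3.15 ± 0.722 CPM in rhSP-D and 2.98 ± 0.176 CPM in vehicle, and 11381 of its 20654 exonic bases face exons of TTN.

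In the other 5 pairs the sense gene rose and the ratio was lower with rhSP-D. A1BG, a plasma glycoprotein gene, had 8.05, 7.69 and 6.68 CPM in rhSP-D, against 5.88, 4.80 and 4.33 CPM in vehicle, a rise of 52.1% without overlap (95% interval 25.2 to 84.8%, edgeR adjusted p = 0.00230). A1BG-AS1 had 3.59, 2.84 and 1.71 CPM in rhSP-D, against 3.12, 2.40 and 2.24 CPM in vehicle, which overlap (adjusted p = 0.819), and the log2 ratio was lower, at -0.57. PTOV1, a gene raised in prostate tumours, had 291 ± 6.93 CPM in rhSP-D and 262 ± 1.997 CPM in vehicle (adjusted p = 1.52e-05), and DYNLL1, a dynein light chain, had 210.1 ± 4.06 CPM in rhSP-D and 195 ± 5.32 CPM in vehicle (adjusted p = 0.00355). PCBP1, a poly(C)-binding protein, had 419 ± 7.15 CPM in rhSP-D and 395 ± 10.9 CPM in vehicle (adjusted p = 0.00383), and MRPL23, of the mitochondrial ribosome, had 79.5 ± 3.06 CPM in rhSP-D and 73.9 ± 2.73 CPM in vehicle (adjusted p = 0.0438). The log2 ratios to PTOV1-AS1, DYNLL1-AS1, PCBP1-AS1 and MRPL23-AS1 differed by -0.22, -0.27, -0.37 and -0.69, antisense over sense. None of these antisense RNAs passed.

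Some of these sense calls rested on single libraries. A1BG, PTOV1 and WAC passed with each library left out in turn. PRKCQ had an adjusted p of 0.0512 without rhSP-D replicate 3 and 0.0723 without vehicle replicate 3, and ARHGAP5 0.141 without rhSP-D replicate 1 and 0.147 without vehicle replicate 3. DYNLL1 had 0.0582 and PCBP1 0.0628 without vehicle replicate 3. ASH1L kept its call only without rhSP-D replicate 2, and its adjusted p was at most 0.251, reached without vehicle replicate 2. TTN likewise kept its call only without rhSP-D replicate 2, and its adjusted p reached 0.221 without rhSP-D replicate 1. MRPL23 kept its call only without rhSP-D replicate 2 or without vehicle replicate 1, and reached 0.270 without vehicle replicate 3. With the length and GC correction the calls of WAC (adjusted p = 0.685), ARHGAP5 (0.341), ASH1L (0.673), TTN (0.103), PCBP1 (0.890) and MRPL23 (0.586) were lost. At equal depth those of WAC (0.0841), ARHGAP5 (0.0787), ASH1L (0.196) and TTN (0.527) were lost. With library totals alone those of DYNLL1 (0.0642), PCBP1 (0.111) and MRPL23 (0.213) were lost, with DESeq2 those of ASH1L (0.0888) and MRPL23 (0.0724), and with no filter that of TTN (0.0679).

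**Figure D4:**
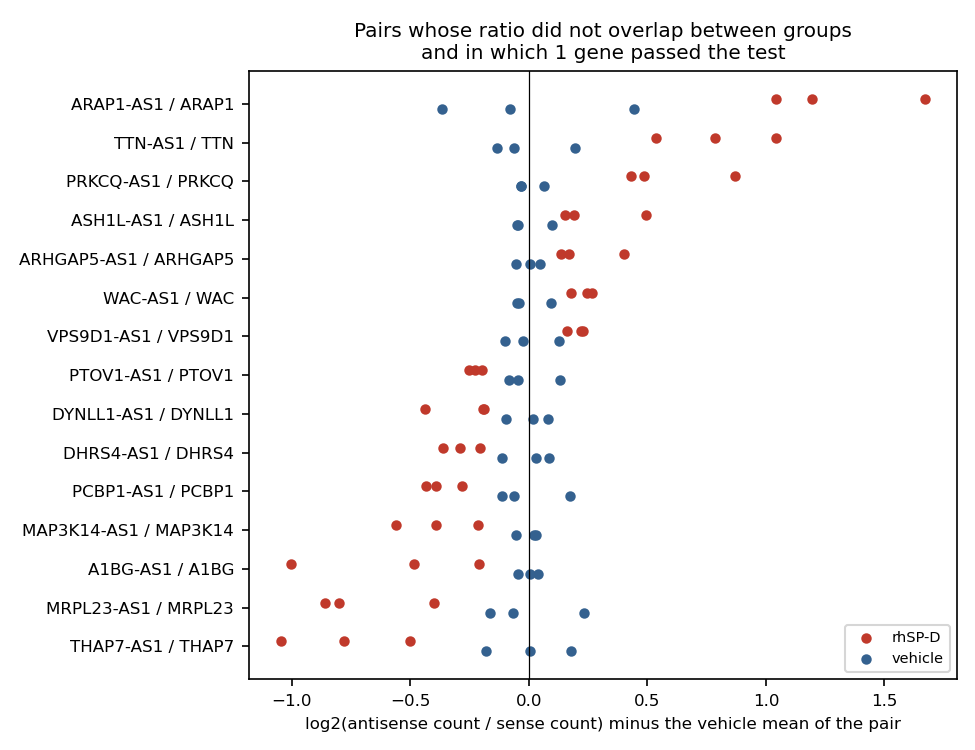
Log2 ratio of antisense to sense counts in each library, less the vehicle mean of the pair (horizontal), for the 15 pairs whose groups did not overlap and in which 1 gene passed the test, with rhSP-D libraries in red above vehicle libraries in blue. The 7 pairs at the top have all rhSP-D libraries to the right of the vehicle libraries and the 8 at the bottom to the left, from a difference of 1.30 for ARAP1-AS1 to -0.78 for THAP7-AS1.

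The antisense RNAs were also set out by where they lie relative to the sense gene, beside 3.56% called over all antisense RNAs and 15.9% over all genes. With so few calls, no difference between positions is read from the counts. In 41 the antisense RNA starts beyond the sense start and runs away without overlap, with a median of 123 bases between the starts (1 to 1376), and 38 lie within 1000 bases. Of these 41, 0 passed in edgeR, limma-voom or DESeq2, which gave an adjusted p to 6 of them, and 2 had an unadjusted p under 0.05. In 90 the antisense RNA starts inside the sense gene and ends upstream of it, and 1 of 89 tested passed, THAP7-AS1. Inside the sense gene lie 30, of which ARAP1-AS1 and VPS9D1-AS1 passed. Of the 41 that start downstream and end inside, 4 of 40 tested passed, FAM211A-AS1, FGD5-AS1, MAP3K14-AS1 and PITPNA-AS1, and of the 13 that span the sense gene 1 passed, DHRS4-AS1.

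The medians by position lay between -0.15, for those that span the sense gene, and 0.056, for those inside it. All 8 that passed hold bases that face an exon of the other strand. Of the 51 antisense RNAs without such bases, 0 passed in edgeR or in DESeq2, which gave an adjusted p to 10 of them, 1 passed in limma-voom, and 2 had an unadjusted p under 0.05. Their median level was 1.95 CPM and their median log2 change -0.029. Of all genes under 2 CPM, 1.24% passed in edgeR. The part of shared reads in the calls was not tested.

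**Figure D5:**
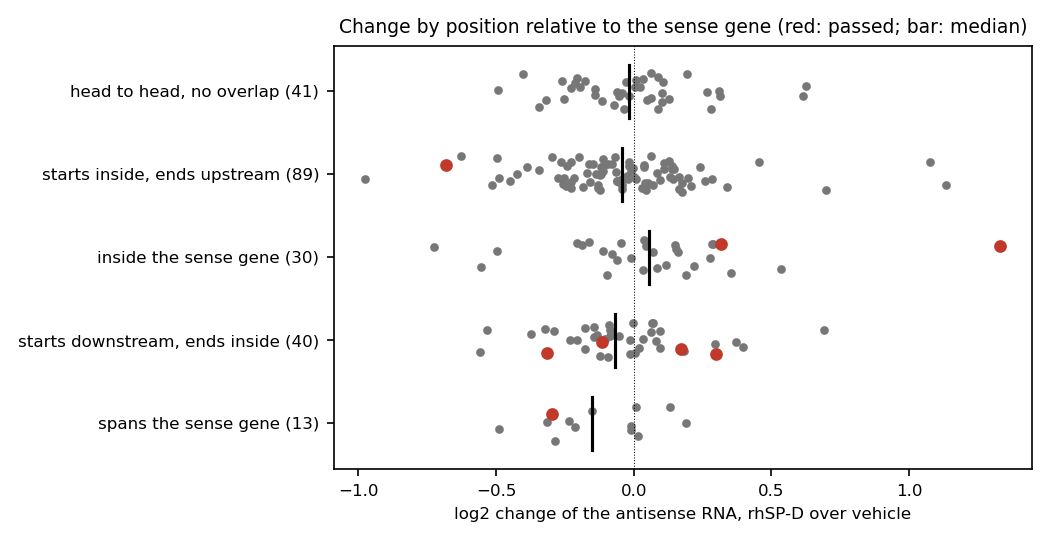
Log2 change of antisense RNAs (horizontal, rhSP-D over vehicle) by position relative to the sense gene (rows, with the number tested), red where the adjusted p was under 0.05, with a bar at each median. The 8 red points are spread over 4 of the positions, and their number is too small to set one position apart.

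The antisense RNAs of the HOX clusters, which encode the transcription factors of body-axis patterning, did not pass. HOXA-AS2, the most abundant, averaged 13.7 CPM in rhSP-D and 14.0 CPM in vehicle (edgeR adjusted p = 0.838). HOXB-AS1, HOXC-AS1, HOXD-AS2, HOXA-AS3 and HOXB-AS3 were between 0.576 and 1.53 CPM in both groups, with log2 changes between -0.40 and 0.46 and overlapping groups.

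RNAs whose symbol starts with LINC and digits were set beside the antisense RNAs. They were taken by symbol, and whether any of them is coding was not checked. Of 98 LINC RNAs with a summed count of 60 or more, 6 passed (6.12%), against 15.9% of all genes, 3 higher and 3 lower, with a median log2 change of -0.066. Under 2 CPM 0 of 38 LINC RNAs passed in edgeR, against 1.24% of all genes at that level. Among these 38, 1 had an unadjusted p under 0.05, limma-voom called 0 and DESeq2 gave none an adjusted p. Between 2 and 10 CPM 2 of 36 passed (5.56%), against 3.6%. Between 10 and 50 CPM 1 of 20 passed (5.0%), against 14.0%, and at 50 CPM or more 3 of 4, against 39.2%. The 3 higher were LINC00493, LINC00152 and LINC00963, and the 3 lower were LINC00657, LINC00909 and LINC01001, named to spell out the count after their values were seen. LINC00657, the transcript NORAD that binds Pumilio proteins, had 269 ± 4.59 CPM in rhSP-D and 295 ± 7.17 CPM in vehicle (edgeR adjusted p = 0.000105).

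Genes of nuclear and cytoplasmic RNA decay, which act on such transcripts, differed in both directions. Of 33 listed, 8 passed (24.2%), 3 higher and 5 lower, with a median log2 change of -0.0044. The share over all genes was 15.9%. At the levels of these genes, whose median was 33.3 CPM, it was 14.0% between 10 and 50 CPM and 39.2% at 50 CPM or more, so the decay share was near the background. The exosome subunits EXOSC4 and EXOSC5 rose by 15.1% and 17.9% (edgeR adjusted p = 0.00271 and 3.29e-05), and PABPN1, the nuclear poly(A)-binding protein, by 9.87% (adjusted p = 0.000352). The nonsense-mediated decay kinase SMG1 fell by 14.3% (adjusted p = 6.31e-05). The 5'-3' exonuclease XRN1 fell by 17.4%, the exosome helicase SKIV2L2 (MTREX) by 10.7% and ZFC3H1, which links that helicase to polyadenylated nuclear RNA, by 10.4% (adjusted p = 0.0340, 0.00436 and 0.0351). With the length and GC correction 4 decay genes passed, 4 higher and 0 lower, so the falls were lost, and without rhSP-D replicate 1 the count was 5.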

How the data were processed

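Gene counts of 6 A549 samples, grouped by their titles, were analysed. The authors deposited raw counts of 57773 genes. The tools are cutadapt, STAR 2.7.0a and featureCounts 2.0.0, with build GRCh38 (hg38), per the submitters' processing notes. Annotation release, strand setting and handling of multi-mapping reads: not given in the sources used here. Members and lists were chosen with earlier results of these data known.

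Counts were tested with edgeR 4.0.16 in R 4.3.3: filterByExpr (minimum count 10, minimum total 15), TMM factors, a robust quasi-likelihood fit, 2-sided, p-values adjusted by Benjamini-Hochberg over all 15848 genes. Genes rose, fell or passed at an adjusted p under 0.05. SEs come from the test statistic, and CPM use TMM-scaled library sizes with SD over 3 samples. The sources speak of triplicates but not of separate cultures, so the p-values reflect only how far these samples scatter, possibly for technical reasons, and intervals cover the fitted spread only. Chi-square per degree of freedom between libraries was 1.90 to 2.13 within groups and 3.71 to 5.77 across them. None was a copy.

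Positions, exons and types were matched by identifier to GENCODE 29 for 223 of 227, sense genes by symbol or an older symbol, and promoters by symbol to RefSeq. Named were the antisense RNAs that passed, the 10 most abundant, the 5 largest rises and 5 largest falls of the fitted change, their sense genes, ratio pairs with 1 gene passing, those at the border of the rule, and decay genes that passed. A few of these are left out of the text. The procedure was tested on simulated data. Alternatives were DESeq2 1.42.0 and limma-voom (limma 3.58.1), DESeq2 size factors, library totals, no filter or 1 CPM in 3 samples, omission of each library, a replicate block, thinning to 11396193 counts, a length and GC correction, an adjusted p under 0.01, a summed count of 200, a pseudocount of 1 and genes without facing exons.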

Additional observations from a re-analysis of the deposited data

How the results depend on the processing

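The count of antisense RNAs past the threshold was 8, and it was 14 with library totals alone, 5 with the length and GC correction, 4 at equal depth, 3 at an adjusted p under 0.01 and 0 without facing exon bases (51 genes tested in place of 225). Leaving out 1 library gave 2 to 9 antisense RNAs, 17 to 35 sense genes, 3 to 5 LINC RNAs, 5 to 8 decay genes and 1678 to 2182 of all genes. The sense genes were 24 with the length and GC correction, 20 at 0.01 and 6 without facing exon bases. All genes called numbered 1682 with that correction and 1465 at 0.01, the LINC RNAs 3 at equal depth and 3 at 0.01, and the decay genes 4 with that correction. The median log2 change of antisense RNAs was -0.072 with library totals alone and -0.054 to -0.024 with 1 library left out. That of sense genes was -0.063 with library totals, 0.0073 with the correction and -0.054 without facing exon bases. Ratios that did not overlap numbered 7 without facing exon bases (47 pairs) and 49 to 57 with 1 library left out, where fewer samples separate more easily. HNRNPU had a log2 change of 0.11 with the length and GC correction (edgeR adjusted p = 3.66e-05) in place of -0.017, and the cause was not tested. DESeq2, which gave an adjusted p to 52 antisense RNAs, called 6 and limma-voom 12. DESeq2 size factors, no filter, the 1 CPM filter and a pseudocount of 1 left these counts within 1.5 times.

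Replicate numbers did not pair the samples: the correlations of same-numbered deviations were -0.079, -0.068 and 0.027. With the replicate block 8 antisense RNAs, 33 sense genes and 2319 of all genes passed, and the calls of TTN (adjusted p = 0.0718) and MRPL23 (0.0700) were lost. The depth limits the antisense RNAs under 2 CPM, whose median SE of the log2 change was 0.32.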
